A study of Mus musculus with 7 samples.

Results

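Cd207, Mfge8, H2-M5, P2rx2, Cacna1e, Rgs18 and Cd244a are 7 genes chosen by their measured transcript levels, which were high in epidermal cells annotated as resident Langerhans cells. They are 7 of the 15155 genes listed for donor cells, and all of them are also among the 23737 genes listed for host cells and the 26383 listed for keratinocytes. Since they were selected on these levels, their values across cell clusters below are a description and carry no test. The epidermis was taken from C57BL/6 hosts (male, CD45.2) 3 weeks after lethal irradiation and transplantation of C57BL/6 marrow from donors that were female and CD45.1. Donor-derived myeloid cells positive for CD11b and MHCII formed 3 libraries labelled BMT (bone marrow transplant) and 1 labelled as BMT with T cells added (BMT + T cells). The other libraries were 1 of host CD11b+MHCII+ cells labelled BMT and 1 of CD45-negative keratinocytes under each label. The design text of the series lists CD4 T cells among the cells given, together with CD8 T cells of the Matahari (Mh) kind, whereas the labels of the BMT libraries name no T cells, so libraries are compared by label. The study describes its donor cells as coming from separate sorting experiments on pooled mice, without naming the library of each, so a p-value measures the spread between these libraries and not between single animals.

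Langerhans cells are the macrophage-related antigen-presenting cells of the epidermis. They hold their place between keratinocytes by adhesion molecules, renew themselves locally, and leave for the draining lymph node after activation. When the embryonically seeded network is destroyed, circulating precursors enter the epidermis and take on Langerhans cell features, and such cells are called monocyte-derived Langerhans cells (mLC). Cd207 encodes langerin, the C-type lectin of the Birbeck granule that defines the lineage. Mfge8 encodes lactadherin, a secreted protein that bridges phosphatidylserine on dying cells to integrins. H2-M5 is a non-classical MHC class I-like gene. P2rx2 encodes an ATP-gated cation channel, and Cacna1e the pore-forming subunit of the R-type voltage-gated calcium channel. Rgs18 encodes a regulator of G-protein signalling, and Cd244a encodes 2B4, a SLAM family receptor for CD48.

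In GRCm38 the genes lie apart except for a share of chromosome 1. Cd207 lies at chr6:83671207-83677857, Mfge8 at chr7:79133768-79149060, H2-M5 at chr17:36983785-36997955 and P2rx2 at chr5:110339812-110343320, all protein-coding. Rgs18 at chr1:144752683-144775427, Cacna1e at chr1:154390806-154884785 and Cd244a at chr1:171558718-171585316 share a chromosome. RefSeq promoter windows (GRCm38.p6, the 250 bases before the annotated start, written 5′ to 3′ on the gene's own strand) were matched for 5 of the 7 genes. The 4 genes below are shown because their levels differed in opposite directions between the shallowest resident mLC and the rest. Cd207 and Mfge8 were lower in the shallowest cells, and H2-M5 and Cacna1e were higher. All 4 are on the minus strand, and the windows of H2-M5 and Cacna1e lie inside the gene's whole annotated extent. Capitals mark matches, on either strand, to the motif letters RUNX TGTGGT, PU.1 GAGGAA, SMAD CAGACA, AHR GCGTG and the E-box CACCTG.
Cd207, chr6:83677858-83678107: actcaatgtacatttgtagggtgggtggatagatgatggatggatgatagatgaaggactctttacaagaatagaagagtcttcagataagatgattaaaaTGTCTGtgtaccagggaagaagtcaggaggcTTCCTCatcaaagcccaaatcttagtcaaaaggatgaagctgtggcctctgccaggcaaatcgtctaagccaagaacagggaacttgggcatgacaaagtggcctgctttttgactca
Mfge8, chr7:79149061-79149310: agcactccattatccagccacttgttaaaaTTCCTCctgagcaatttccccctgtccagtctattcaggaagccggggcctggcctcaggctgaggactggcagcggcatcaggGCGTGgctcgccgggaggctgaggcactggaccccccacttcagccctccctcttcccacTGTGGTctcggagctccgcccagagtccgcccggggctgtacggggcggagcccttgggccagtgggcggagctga
H2-M5, chr17:36989534-36989783: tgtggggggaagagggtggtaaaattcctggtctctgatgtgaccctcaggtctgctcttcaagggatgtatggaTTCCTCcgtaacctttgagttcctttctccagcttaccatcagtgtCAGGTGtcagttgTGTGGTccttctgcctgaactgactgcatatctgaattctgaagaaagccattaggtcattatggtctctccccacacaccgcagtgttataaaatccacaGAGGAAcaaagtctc
Cacna1e, chr1:154725921-154726170: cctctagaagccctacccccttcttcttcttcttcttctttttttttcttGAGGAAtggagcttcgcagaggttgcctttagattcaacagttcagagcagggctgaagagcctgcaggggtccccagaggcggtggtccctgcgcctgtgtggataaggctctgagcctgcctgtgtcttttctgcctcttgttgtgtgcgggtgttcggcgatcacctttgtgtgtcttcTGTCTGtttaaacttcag
The PU.1 letters were found in 4 of the 5 windows (Cd207, Mfge8, H2-M5 and Cacna1e) and in 23.13% of all 27025 promoters of that length. The RUNX letters occurred in Mfge8 and H2-M5 (14.18% of all promoters), the SMAD letters in Cd207 and Cacna1e (17.07%), the AHR letters in Mfge8 (28.21%) and the E-box in H2-M5 (17.1%). None of these letters was in the Cd244a window. The windows of H2-M5 and Mfge8 thus shared PU.1 and RUNX letters, and those of Cd207 and Cacna1e shared PU.1 and SMAD letters. The matches therefore did not separate the genes in the way the shallowest cells did. A match is a description of the letters and was not tied to any measurement of binding.

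The donor libraries held 2572, 8382 and 226 cells (BMT replicates 1 to 3) and 719 cells (BMT + T cells), at median depths of 7021.5 to 13387 unique molecular identifiers (UMIs) per cell. The authors' cluster resident mLC took 105, 1175, 51 and 320 of these cells, 1651 of 11899 in all, at median depths of 10082, 7343, 18027 and 12852.5 UMIs. Levels below are UMIs per 10000 UMIs of the cell (CP10K), averaged over the cells of a library. Markers were read in this cluster as a description. They are no independent check of its name, since the paper itself defines resident mLC by Cd207, Epcam and Mfge8. The 5 Langerhans markers (Cd207, Epcam, Mfge8, Cdh1 and Cd24a, of which Cd207 and Mfge8 are members here) were all detected and summed to 70.8 to 98.9 CP10K over the 4 libraries. The 5 classical monocyte markers summed to 1.73 to 2.05 CP10K in resident mLC and to 99.0 to 187 CP10K in the cluster Mono. Of the macrophage markers, C1qa, C1qb and C1qc were the highest in resident mLC, with means of 5.78, 4.09 and 2.56 CP10K. In the cluster of Mrc1+ macrophages they stood at 38.5, 35.6 and 26.7 CP10K. Keratinocyte markers summed to 0.307 to 1.06 CP10K in resident mLC and T cell markers to at most 0.0380 CP10K. Donors were female and hosts male, and Y-linked UMIs were found in 0, 8, 7 and 6 resident mLC cells of BMT replicates 1 to 3 and BMT + T cells. Donor libraries shared 0 to 5 cell barcodes per pair.

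Langerin transcript was higher in resident mLC than in each other donor cluster of at least 20 cells in the same library. Relative to its mean, it varied among the 4 libraries more than the other 6 members. Cd207 stood at 1.31, 5.50 and 10.4 CP10K in BMT replicates 1 to 3 and at 9.50 CP10K in BMT + T cells, a mean of 6.67 ± 4.16 (SD, n = 4 libraries). Replicate 1 was the low library, well under the next. The next cluster in order was cycling mLC at 2.83 ± 2.46 CP10K (n = 3), whose range of 0.194 to 5.05 overlapped that of resident mLC. Within each of the 3 libraries that held both clusters, resident mLC were higher, by 1.70 to 6.76 times. Migrating mLC followed at 0.631 CP10K (n = 2), and Mono came last at 0.0352 ± 0.0255 (n = 4).

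Lactadherin transcript differed from the other members in staying near its resident level in migrating mLC. Mfge8 stood at 32.6, 56.8, 52.9 and 44.4 CP10K in resident mLC (BMT replicates 1 to 3, then BMT + T cells), a mean of 46.7 ± 10.7 (SD, n = 4). Migrating mLC, the cluster whose name marks cells leaving the epidermis, held 32.9 and 45.6 CP10K in the 2 libraries with at least 20 such cells. Resident and migrating levels of the same library were thus close, at 0.990 to 1.24 times. Cycling mLC held 25.3 ± 13.0 CP10K (n = 3), the cluster the authors call MC 6.43 and Mono 0.601 CP10K.

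H2-M5, the ion channel genes and Rgs18 fell away in migrating mLC. H2-M5 stood at 4.88, 3.56, 3.53 and 3.95 CP10K in resident mLC, a mean of 3.98 ± 0.631 (SD, n = 4). Its range did not overlap that of cycling mLC, which was 0.405 to 3.33 CP10K, and migrating mLC held 0.109 CP10K. Over cells of at least 2000 UMIs the ranges did overlap, at 1.39 to 3.54 CP10K in resident and 0.423 to 2.59 in cycling mLC, and in BMT + T cells the cycling mLC were then above the resident ones (2.59 against 1.77). P2rx2 stood at 1.85, 2.22, 3.40 and 4.13 CP10K in resident mLC (2.90 ± 1.05), against 1.11 ± 1.24 in cycling and 0.0413 in migrating mLC.

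Cacna1e stood at 2.39, 0.951, 2.12 and 1.39 CP10K in resident mLC (1.71 ± 0.660, SD, n = 4), against 0.467 ± 0.583 in cycling and 0.00705 in migrating mLC. Rgs18 was the steadiest member, at 3.48, 3.39, 3.31 and 3.72 CP10K (3.48 ± 0.180). Its range lay above that of cycling mLC, 0.985 to 2.79 CP10K, and migrating mLC held 0.177 CP10K. Cd244a was the least particular of the 7, at 0.714, 0.451, 0.438 and 0.781 CP10K in resident mLC (0.596 ± 0.177). Cycling mLC held 0.414 ± 0.124 CP10K of it, Mrc1+ macrophages 0.291 and Mono 0.167, and resident mLC were above Mrc1+ macrophages in 3 of 4 libraries.

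**Figure D1:**
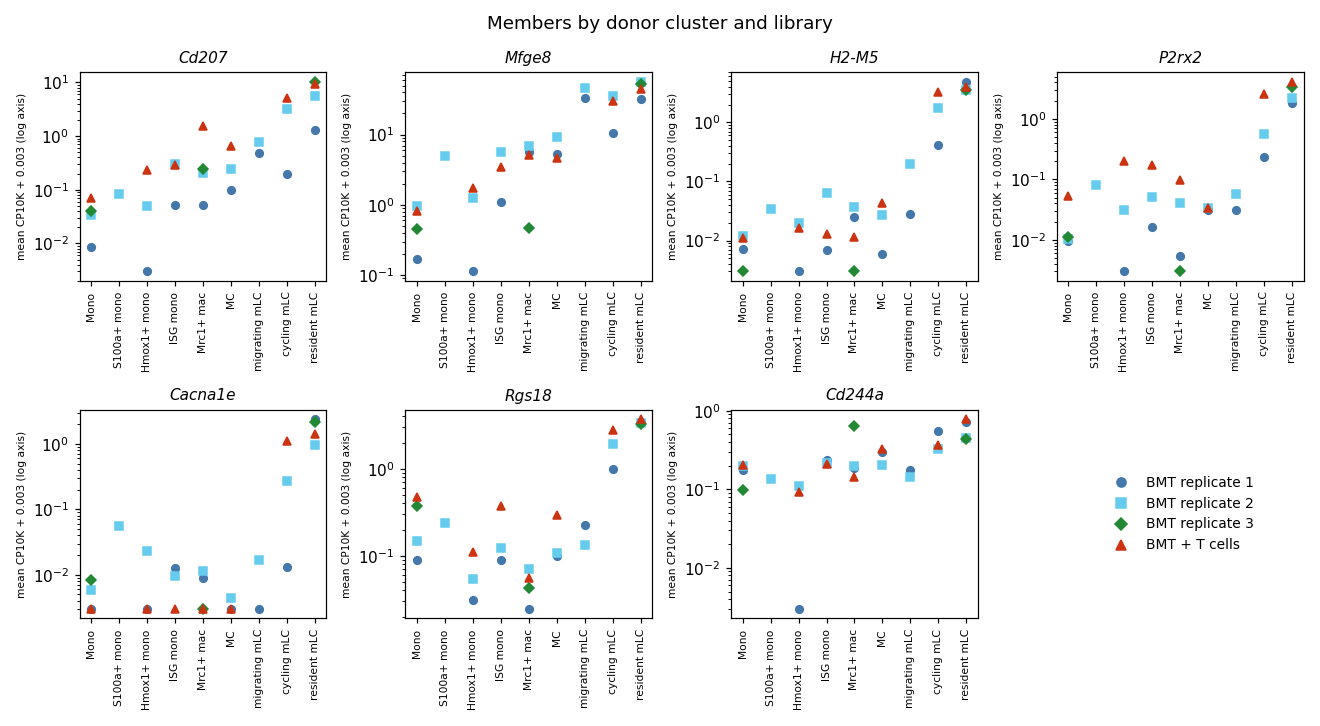
Mean level of each of the 7 genes by annotated donor cluster, on a log axis of mean CP10K plus 0.003, with 1 point per library that had at least 20 cells in the cluster. Mfge8 stays near its resident level in migrating mLC (32.9 and 45.6 CP10K), whereas H2-M5, P2rx2, Cacna1e and Rgs18 drop there.

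The same contrast between resident mLC and the other clusters can be put as a rank. Of 7267 genes that averaged 0.1 CP10K or more, the resident level minus the mean of the other clusters (log2 scale) was 4.57 for H2-M5 (rank 1), 4.0 for P2rx2 (rank 3) and 3.93 for Cd207 (rank 4). Cacna1e (3.75, rank 6), Rgs18 (3.53, rank 8) and Mfge8 (3.39, rank 10) followed, and Cd244a stood at 1.22 and rank 192. The genes in between were Ptgs1 (rank 2), Hpgds (rank 5), Ltc4s (rank 7) and Lpar3 (rank 9). Ptgs1 encodes cyclooxygenase-1, Hpgds prostaglandin D synthase and Ltc4s leukotriene C4 synthase, all enzymes of eicosanoid synthesis. These ranks restate the choice of the members.

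Shares of positive cells were read after each cell was thinned to 2000 UMIs, which left out 19, 48, 4 and 45 resident mLC. Mfge8 was detected in 81.4, 91.3, 89.4 and 91.6% of the remaining resident mLC (BMT replicates 1 to 3, then BMT + T cells), and in 2.08 to 14.4% of Mono. Its share in migrating mLC was 62.7 to 66.9% (2 libraries), below that of resident mLC. Cd207 was detected in 20.9, 49.2, 51.1 and 60.7% of resident mLC and in 0 to 3.51% of Mono. Langerin transcript was therefore not seen in every resident mLC at this depth, and least often in replicate 1.

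Rgs18 was detected in 42.9 to 61.6% of thinned resident mLC, P2rx2 in 27.9 to 38.9%, H2-M5 in 19.8 to 39.8% and Cacna1e in 8.14 to 13.5%. Cd244a was detected in 8.0 to 11.6% of resident mLC and in 1.67 to 3.80% of Mono. Free RNA can place a UMI in a cell that does not make it, and its part in the shares of Mono was not tested. H2-M5 was found in at most 0.190% of Mono. Rgs18 was found in 4.01% of Mono and 0.405% of Mrc1+ macrophages (means over libraries), so the low shares differed between clusters. A thinned resident mLC held UMIs of 2.31, 2.78, 2.72 and 2.81 of the 7 genes on average (2.66 ± 0.231, SD, n = 4 libraries). Cycling mLC held 1.69, migrating mLC 0.788 and Mono 0.146. At least 3 of the 7 genes were found in 37.2 to 56.7% of resident mLC, and of all donor cells with at least 3, resident mLC made up 84.2 to 96%. Cells with all 7 were rare, at 0, 5, 0 and 2 per library.

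The members did not follow the depth of the cell in the same way. Resident mLC under 2000 UMIs numbered 19, 48, 4 and 45 in BMT replicates 1 to 3 and BMT + T cells, and their median share of mitochondrial UMIs was 20.4, 5.76, 18.8 and 11.5%. In the other resident mLC this median was 1.77, 2.19, 1.29 and 1.23%. Both depth and mitochondrial share therefore moved together with the levels given next.

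H2-M5 stood at 20.7, 4.01, 14.9 and 17.3 CP10K in cells under 2000 UMIs and at 1.39, 3.54, 2.57 and 1.77 CP10K in the rest, so it was higher in the shallow cells of 4 of 4 libraries, by 1.13 to 14.8 times. Cacna1e stood at 10.6, 2.06, 16.0 and 6.01 CP10K in the shallow cells and at 0.567, 0.904, 0.942 and 0.634 CP10K in the rest, 2.27 to 18.7 times higher. P2rx2 was 1.54 to 8.96 times higher in the shallow cells of the 4 libraries. The langerin and lactadherin genes went the other way in each library.

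Cd207 stood at 0.779, 2.80, 3.72 and 4.59 CP10K in the shallow cells and at 1.42, 5.61, 10.9 and 10.3 CP10K in the rest, and the ratio was 0.340 to 0.546. Mfge8 stood at 9.63, 51.8, 4.24 and 24.6 CP10K in the shallow cells and at 37.6, 57, 57 and 47.6 CP10K in the rest, a ratio of 0.0743 to 0.909. Rgs18 was higher in the shallow cells of 1 of 4 libraries and Cd244a in 2 of 4. The shallow cells of replicate 3 are only 4, and they held 8 UMIs of H2-M5, 5 of Cacna1e and 2 of Mfge8.

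For H2-M5, Cacna1e and P2rx2 the trend was not limited to the shallowest cells. In BMT replicate 2, the largest library, cells of 2000 to 4999, 5000 to 9999 and 10000 to 19999 UMIs held 6.11, 3.28 and 2.12 CP10K of H2-M5. The same classes held 1.96, 0.793 and 0.348 CP10K of Cacna1e and 3.58, 2.12 and 1.07 CP10K of P2rx2. Rgs18 also fell over these classes, at 4.16, 3.56 and 2.47 CP10K. Cd207 moved less there, from 6.74 to 5.68 and 4.46 CP10K, and Mfge8 stood at 48.4, 62.6 and 48.8 CP10K. Over resident mLC of at least 2000 UMIs the mean level of H2-M5 was 2.32 CP10K in place of 3.98, and that of Cacna1e 0.762 in place of 1.71 CP10K. The other 5 members moved by less than 1 SD between libraries. The study states that cells under 500 genes or over 20% mitochondrial UMIs were removed, yet by the listed genes and the deposited mitochondrial column 13, 4, 2 and 9 resident mLC of the 4 libraries lay outside these limits. Without them, H2-M5 stood at 3.10 CP10K and Cacna1e at 1.04 CP10K. The part of depth and mitochondrial share in these levels was not tested.

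**Figure D2:**
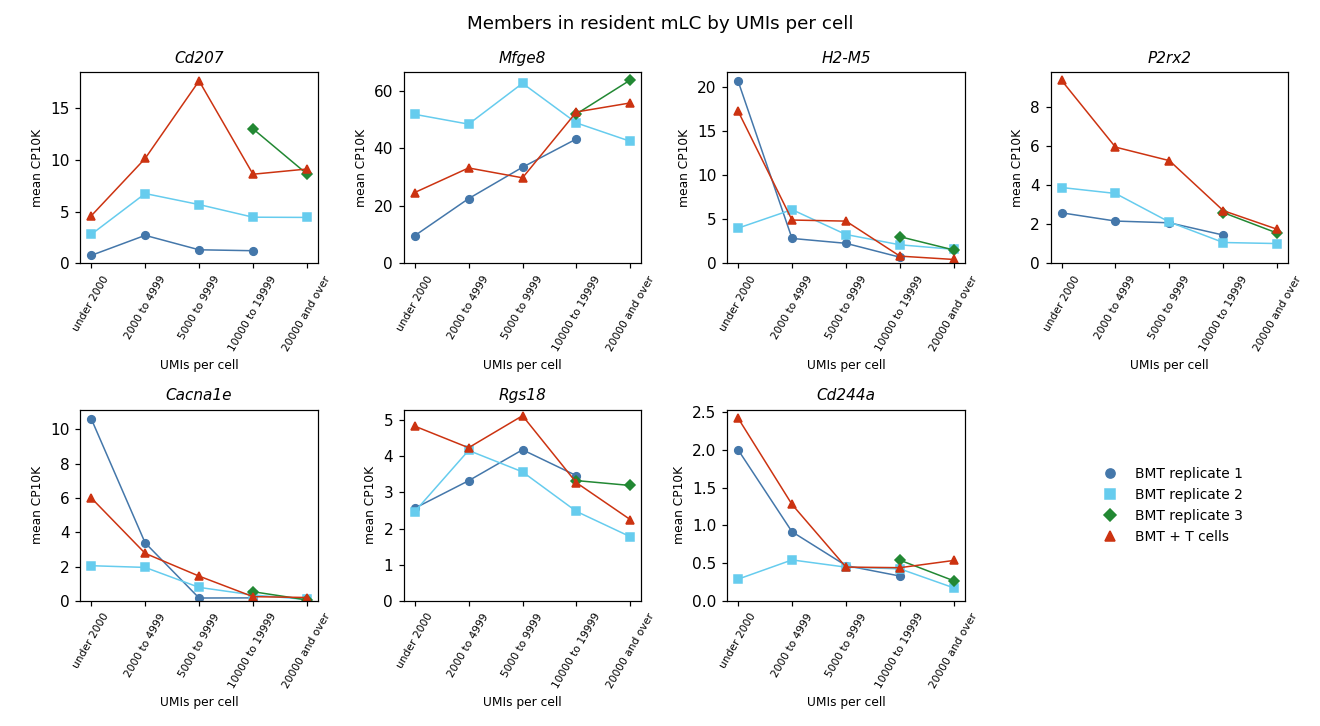
Mean level of each of the 7 genes (CP10K, linear axis from 0) in resident mLC by class of UMIs per cell, 1 line per donor library, for classes of at least 10 cells. In BMT replicates 1 and 2 and BMT + T cells, H2-M5 and Cacna1e are highest in classes under 5000 UMIs (BMT replicate 3 has only the 2 deepest classes), whereas Mfge8 is higher in the deepest than in the shallowest class of BMT replicate 1 and of BMT + T cells.

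The authors deposited a latent time for each donor cell, derived from RNA velocity and therefore from the RNA of the same cells. Along it, over thinned donor cells, the mean Spearman coefficient over the 4 libraries was 0.520 for Mfge8, 0.381 for Cd207, 0.377 for Rgs18 and 0.336 for P2rx2. It was 0.328 for H2-M5, 0.231 for Cacna1e and 0.0529 for Cd244a. For Cd207 the libraries ranged from 0.127 to 0.543. These are descriptions over cells that share a library and a depth. Without resident mLC the coefficients were lower, and they were mixed in sign for Mfge8, Cd207, Rgs18 and Cd244a. Those of Mfge8 were 0.177, 0.165, -0.0422 and -0.125 in BMT replicates 1 to 3 and BMT + T cells, and those of Cd207 ran from -0.161 to 0.0398. H2-M5 and Cacna1e had a coefficient in only 2 libraries there, and P2rx2 had none in replicate 3. The values of H2-M5, Cacna1e and P2rx2 were all positive, at 0.0127 to 0.0520.

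Among resident mLC of at least 2000 UMIs, most members still rose with latent time. In BMT replicate 2, from the bin 0.2 to 0.3 (49 cells) to the bin 0.7 to 0.8 (69 cells), Cd207 went from 2.22 to 12.5 CP10K and H2-M5 from 0.652 to 11.3. Over the same bins P2rx2 went from 0.432 to 4.98, Cacna1e from 0.0866 to 4.04 and Rgs18 from 1.08 to 7.81 CP10K. Mfge8 peaked in the middle, at 79.7 CP10K in the bin 0.5 to 0.6, and held 31.1 and 33.9 CP10K at the ends. Cd244a stayed between 0.332 and 0.637 CP10K.

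The BMT + T cells library had a like course. From the bin 0.3 to 0.4 to the bin 0.7 to 0.8, Cd207 went from 4.59 to 21.3 CP10K and H2-M5 from 0.261 to 5.06, and Mfge8 peaked at 61.3 CP10K in the bin 0.6 to 0.7. The median depth fell along the same bins, from 10943 to 4858 UMIs in replicate 2 and from 16517 to 9818.5 UMIs in BMT + T cells. Its part in the rise was not tested.

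**Figure D3:**
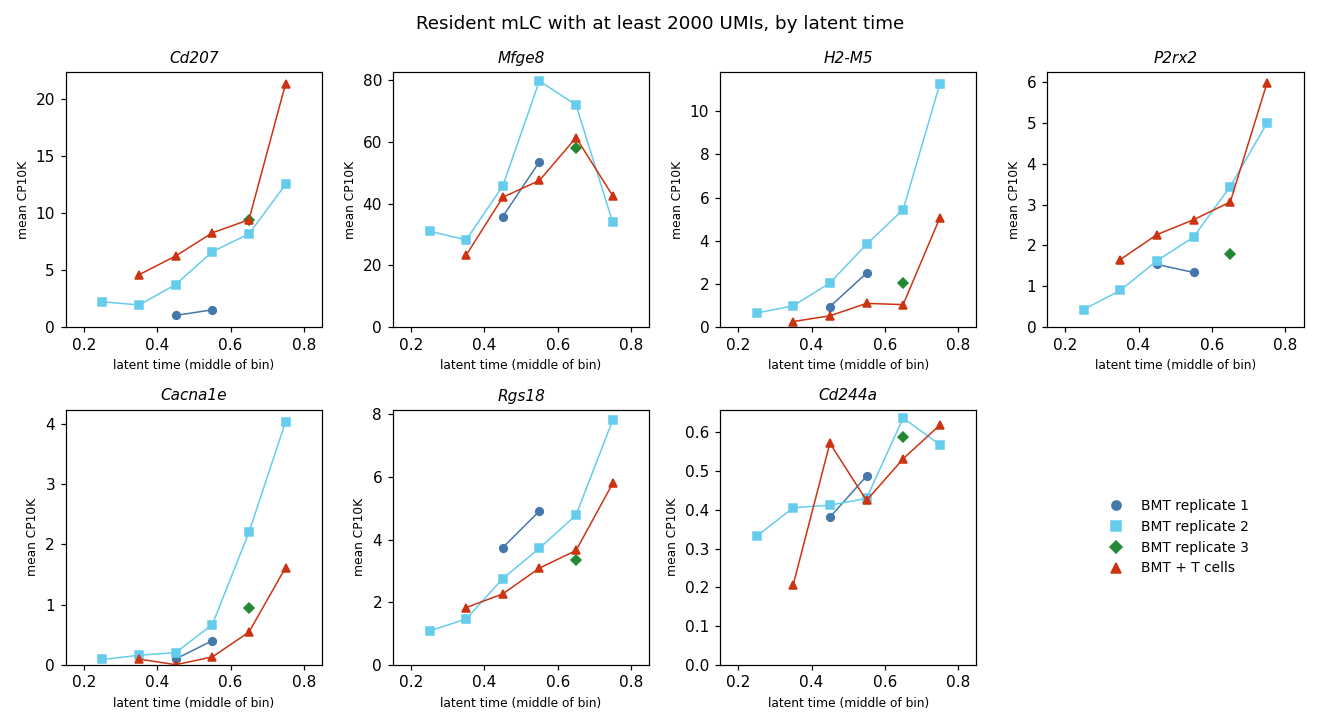
Mean level of the 7 genes (CP10K, linear axis from 0) in resident mLC of at least 2000 UMIs by latent time (points at the middle of bins of 0.1 with at least 20 cells), 1 line per donor library. In BMT replicate 2 and BMT + T cells, Cd207 and H2-M5 are highest in the last bin, and Mfge8 peaks earlier, whereas BMT replicates 1 and 3 have only 2 bins and 1 bin.

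To ask whether the label BMT + T cells was linked to the members, resident mLC of that library were compared with those of the 3 BMT libraries by limma on log2(mean CP10K + 0.1). The per-library levels are those given above. BMT + T cells lay above every BMT library for P2rx2, Rgs18 and Cd244a, 3 of 7 members, where 21.2% of all 7343 genes tested did so, and below every BMT library for 0 of 7, where 14.7% of genes did. Over cells of at least 2000 UMIs, P2rx2 and Cd244a still lay above. Rgs18 did not, at 3.54 CP10K against 3.69, 3.43 and 3.59 in BMT replicates 1 to 3. The share of all genes that lay above over these deeper cells was not computed, so this count is a description only. Cd207 of BMT + T cells lay within the range of the BMT libraries. The log2 differences were 1.14 ± 0.96 (SE) for Cd207, 0.75 ± 0.37 for P2rx2 and 0.50 ± 0.39 for Cd244a. Those of Rgs18, H2-M5, Mfge8 and Cacna1e lay between -0.27 and 0.13.

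With limma and Benjamini-Hochberg adjustment, 0 of 7 members passed an absolute log2 difference above 1 and an adjusted p under 0.05, as did 0% of the 7343 genes (0 in either direction). At an unadjusted p under 0.05, 14 genes were higher and 19 lower (0.191% and 0.259%), none of them a member, and the smallest unadjusted p among members was 0.0798 for P2rx2. The spread of the single BMT + T cells library was taken to be that of the BMT libraries, and the SE of Cd207 allows a wide range of differences in either direction. Without replicate 3, 4 genes were called, and P2rx2 stood at 0.99 with a limma adjusted p of 0.445. When the form of the library name was added as a term, the difference of Cd207 was -0.12.

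That term was tried because the library names come in 2 forms, DM1 and DM2 (BMT replicates 1 and 2) and DMBMT and DMBMTT (BMT replicate 3 and BMT + T cells). No label says what the forms mark. Cd207 was 1.31 and 5.50 CP10K under the first form and 10.4 and 9.50 under the second. P2rx2 was 1.85 and 2.22 CP10K under the first and 3.40 and 4.13 under the second. These 2 of 7 members did not overlap between the forms, where 20% of genes lay above in both libraries and 26.9% below.

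The log2 difference in this comparison was 1.84 ± 0.62 (SE) for Cd207, with a limma adjusted p of 0.289, and 0.85 ± 0.20 for P2rx2, with an adjusted p of 0.104. The other 5 members lay between -0.15 and 0.17. By the same limits as above, 0 of 7 members were called, where 29 genes were called over the whole table, 17 higher (0.232%) and 12 lower (0.163%), 0.395% in all. At an unadjusted limma p under 0.05, 374 genes were higher (5.09%) and 693 lower (9.44%), and Cd207 and P2rx2 were the 2 members among them. The size of the Cd207 difference depended on the library left out. It was 2.83 without replicate 2 and 0.84 without replicate 1, and 1.77 without replicate 3 and 1.90 without BMT + T cells. Each of these fits left 1 library in a form, so the spread within that form was not measured. P2rx2 did not keep its separation over cells of at least 2000 UMIs, at 1.68 and 2.15 CP10K against 2.09 and 3.27. Cd207 kept its separation there, and Cd244a gained one, at 0.429 and 0.458 CP10K against 0.475 and 0.513. The share of all genes that lay apart over these deeper cells was not computed. In replicate 3, 7 of the 51 resident mLC held a Y-linked UMI, and without them its Cd207 level was 7.44 and its P2rx2 level 2.06 CP10K, the latter inside the range of the first form.

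**Figure D4:**
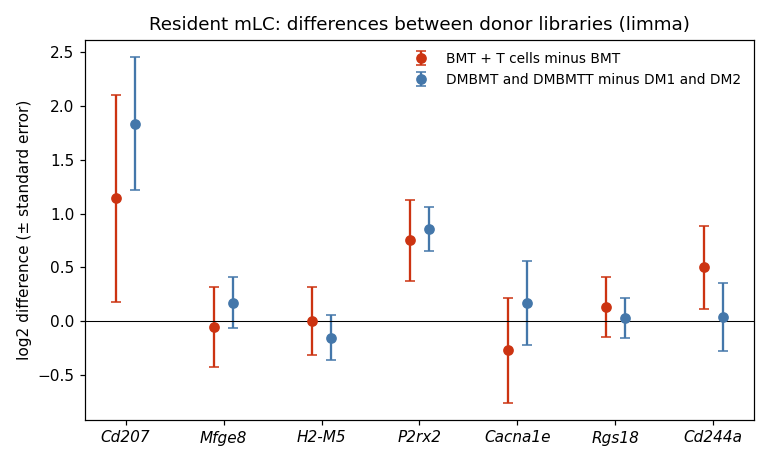
Log2 difference (points) of each of the 7 genes in resident mLC with its SE (bars) by limma, for BMT + T cells against BMT and for the libraries DMBMT and DMBMTT against DM1 and DM2. Cd207 (1.14 and 1.84) and P2rx2 (0.75 and 0.85) have the highest estimates in both, and none of the 7 passed the limits of the test.

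Host myeloid cells came as 1 library of 781 cells, normalised apart from the donor cells, so their levels are set beside the donor levels without a test. The authors' 7 host clusters carry numbers only. Clusters 1, 2, 3 and 4 (276, 170, 161 and 90 cells) held the members, and their Langerhans markers summed to 12.3, 53.1, 18.6 and 30.9 CP10K, against 1.60 to 4.32 in clusters 5 to 7. Cd207 stood at 1.56, 14.0, 2.83 and 6.84 CP10K in clusters 1 to 4, and Mfge8 at 7.47, 26.6, 10.3 and 22.4 CP10K. Both were highest in cluster 2, where keratinocyte markers summed to 40.6 CP10K against 6.08, 2.86 and 4.16 in clusters 1, 3 and 4, and Y-linked markers of the male host to 1.59 against 3.85, 4.48 and 4.09. Their part in these levels was not tested. The Cd207 level of cluster 4 rested on 15 cells under 2000 UMIs (22.8 CP10K), and over its other 75 cells it was 3.65 CP10K.

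Cacna1e was highest where Cd207 and Mfge8 were lowest, in clusters 1 and 3, and stood at 22.4, 4.33, 19.3 and 2.76 CP10K in host clusters 1 to 4, beside 0.951 to 2.39 CP10K in resident mLC of the 4 donor libraries. H2-M5 stood at 5.20, 2.25, 5.56 and 0.775 CP10K and P2rx2 at 2.02, 0.796, 1.47 and 0.212 CP10K. Among host clusters 1 to 4, clusters 1 and 3 were thus high in Cacna1e and H2-M5 and low in Cd207 and Mfge8. Their median shares of mitochondrial UMIs were 15.6 and 17.0%, against 6.09% in cluster 2 and 12.9% in cluster 4, at median depths of 3919.5, 4648, 1763.5 and 5007.5 UMIs for clusters 1, 3, 2 and 4. Over cells of at least 2000 UMIs, clusters 1 to 4 held 24.9, 7.40, 20.5 and 3.31 CP10K of Cacna1e (222, 80, 144 and 75 cells). Their cells under 2000 UMIs held less, at 11.9, 1.60, 9.37 and 0 CP10K, the reverse of the resident mLC of the donors. Over clusters 1 to 4 together, H2-M5 stood at 2.53 CP10K in the cells under 2000 UMIs and 4.49 in the rest, and Cd207 at 9.48 and 4.25. These pooled values mix clusters, since cluster 2 gave 90 of the 176 shallower cells and 80 of the 521 others. In clusters 1 to 4, Cd207 stood at 1.31, 13.2, 4.08 and 22.8 CP10K in the shallower cells. In the rest it stood at 1.63, 14.9, 2.69 and 3.65 CP10K. H2-M5 was lower in the shallower cells of clusters 1, 2 and 4 and higher in those of cluster 3 (6.81 against 5.41 CP10K). Within the filter the study states, 165, 58, 102 and 57 cells of clusters 1 to 4 remained. They held 26.1, 7.02, 21.0 and 3.10 CP10K of Cacna1e and 1.57, 20.5, 3.25 and 3.68 CP10K of Cd207.

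Host cluster 4 held the highest sum of migrating dendritic markers among these 4, 37.3 CP10K. It kept Mfge8 at 22.4 CP10K while Rgs18 was at 0.0361 (2 UMIs in 90 cells), P2rx2 at 0.212 and H2-M5 at 0.775 CP10K. In the donor migrating mLC the corresponding levels were 39.3 for Mfge8, 0.177 for Rgs18, 0.0413 for P2rx2 and 0.109 for H2-M5. The Mfge8 level of host cluster 4 was uneven over depth. It was 49.0 CP10K in 15 cells under 2000 UMIs and 79.8 in 4 cells of 20000 UMIs and over. In the classes of 2000 to 4999, 5000 to 9999 and 10000 to 19999 UMIs it was 14.5, 14.1 and 6.71 CP10K. Rgs18 was 0.775, 2.39 and 1.12 CP10K in host clusters 1 to 3.

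Cd244a was the only member above 1 CP10K outside host clusters 1 to 4. It stood at 2.43, 0.697, 2.75 and 1.16 CP10K in clusters 1 to 4 and at 1.95 CP10K in cluster 6, where 15 of 23 cells held it (65.2%, exact 95% Clopper-Pearson interval 42.7 to 83.6%, counting error only). T cell markers summed to 201 CP10K in cluster 6, with 5 of the 6 detected and Cd8a not detected. Eomes, the only 1 of 4 NK cell markers listed for host cells, was not detected there either. 2B4 is also known on cytotoxic lymphocytes, and whether the cells of cluster 6 are of that kind was not tested. The other 6 members stood at 0 to 0.435 CP10K in that cluster, and P2rx2 had 0 UMIs of 175081, which allows up to 0.171 CP10K.

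**Figure D5:**
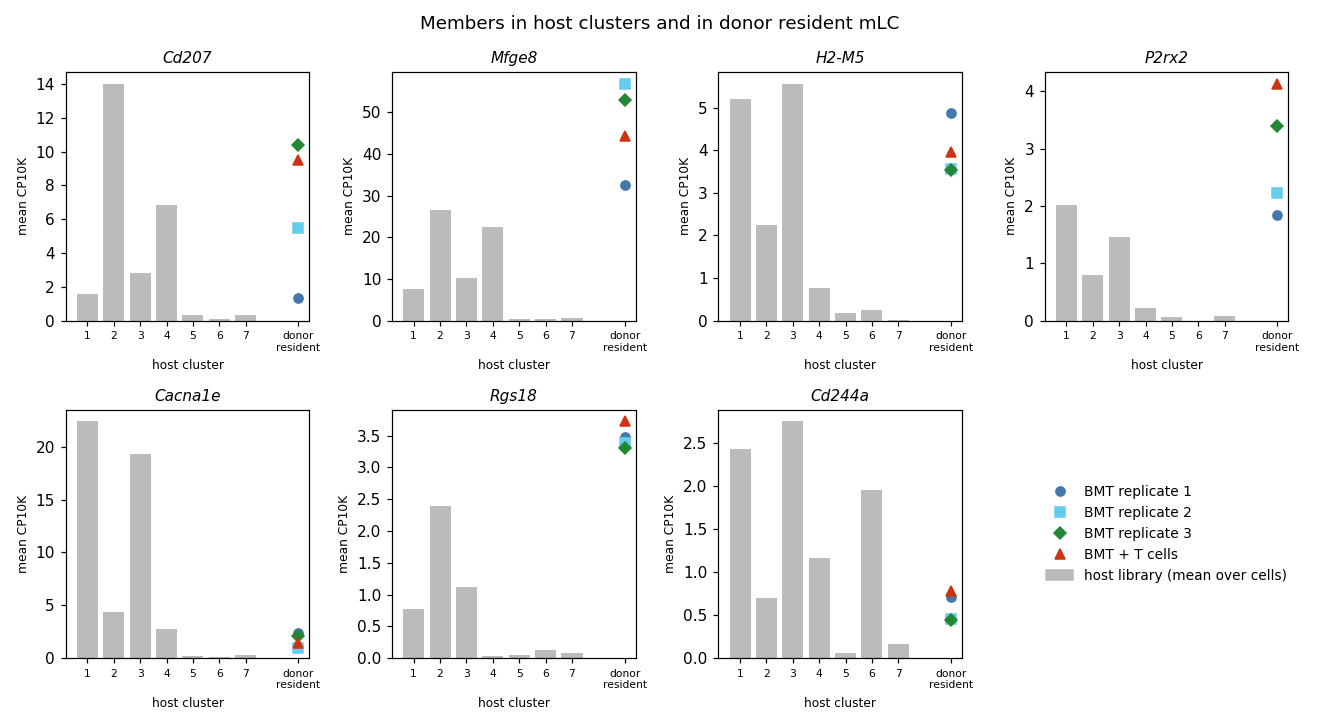
Mean level of each of the 7 genes (CP10K, linear axis from 0) as bars for the 7 numbered clusters of the 1 host library, with a point for resident mLC of each of the 4 donor libraries beside them. Cacna1e is highest in host clusters 1 and 3 (22.4 and 19.3 CP10K), Cd207 in cluster 2 (14.0 CP10K), and Cd244a is also present in cluster 6 (1.95 CP10K).

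In keratinocytes the signature was close to absent, except for Mfge8. H2-M5, Rgs18 and Cd244a had 0 UMIs in both libraries, which allows up to 0.00108 CP10K in BMT (27817737 UMIs over 2836 cells) and 0.00120 CP10K in BMT + T cells (24959785 UMIs over 2590 cells). Cd207 had 3 and 1 UMIs in the BMT and BMT + T cells libraries, P2rx2 had 1 and 3, and Cacna1e had 3 and 0. Mfge8 had 211 and 302 UMIs, found in 5.08 and 7.76% of cells. Its highest level in any keratinocyte cluster was 0.398 CP10K in the cluster Follicular of the BMT library, in 28 of 278 cells.

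The genes most like each member were sought over the 27 library-by-cluster means of the donors, by Pearson's r of log2(mean CP10K + 0.1). These points share 4 libraries and their depths, and r is given as a description. P2rx2 and Cacna1e were both followed closely by Dmpk (0.98 for each), and H2-M5 and P2rx2 both by Wnk2 (0.96 and 0.97). H2-M5 was also close to Ptgs1 and Sucnr1 (0.97 each), and Cacna1e to Scn3a (0.98) and Fam135a (0.97).

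Cd207 was closest to Rtn1 (0.92), Fads3 (0.92) and Nckap1 (0.91), and Mfge8 to Tbc1d4 (0.92), the tight junction gene Cldn1 (0.92) and Galnt12 (0.90). Rgs18 was closest to Igha (0.96), Stk32c (0.95) and Sucnr1 (0.95), and Cd244a to Smarca2 (0.91), Gna15 (0.91) and Lrrcc1 (0.88). Among the members themselves, H2-M5 and P2rx2 (0.96), H2-M5 and Cacna1e (0.96) and P2rx2 and Cacna1e (0.95) were the closest pairs, and Mfge8 and Cd244a (0.54) the least alike.

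Relatives and partners of the members were read from lists of their families. The share of all genes with their highest mean in resident mLC is not given here. The counts below therefore describe the lists and do not set a family apart from other genes. Of 20 other genes known from Langerhans cells, 19 were listed for donor cells and 10 had their highest mean in resident mLC, among them Epcam (22.8 CP10K), Hpgds (10.5), Ltc4s (6.00), Ptgs1 (5.82), Cldn1 (5.14) and Lpar3 (3.61). None of the 4 listed P2X relatives of P2rx2 was highest in resident mLC: P2rx5 stood at 0.575 CP10K and P2rx4 at 0.203 against 1.18 in Mono. Of 10 listed voltage-gated calcium channel subunits, Cacnb2, an accessory beta subunit, was the only one at or above 0.1 CP10K in resident mLC (0.469 against 0.00302 in Mono). Cycling mLC held 0.415 CP10K of Cacnb2.

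Of 2 listed class I-like relatives of H2-M5, H2-M2 had a level of 4.25 CP10K in resident mLC, beside 0.193 in Mono, and H2-M3 at 1.35 and 1.56. These genes are paralogues, and how the counting treated reads they may share was not tested. Of 6 listed RGS relatives of Rgs18, 4 had their highest mean in resident mLC, among them Rgs2 at 5.96 CP10K against 2.16 in Mono. The 2B4 ligand gene Cd48 had a level of 2.25 CP10K in resident mLC, beside 2.09 in Mono, and the adaptor gene Sh2d1b1 at 0.995 and 0.335.

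Of 8 listed receptors and partners of lactadherin, 0 had their highest mean in resident mLC: the integrin genes Itgav and Itgb5 stood at 0.213 and 0.110 CP10K there against 0.764 and 1.19 in Mrc1+ macrophages, and the efferocytosis receptor gene Mertk at 0.0136 against 0.788. In migrating mLC, where Mfge8 was also high, the phosphatidylserine receptor gene Timd4 stood at 0.258 CP10K against 0.002 in resident mLC, and Axl at 1.23 against 0.309. In the comparison of labels by limma, 0 of the genes tested in any of these lists were called, and the median log2 difference of the 7 members was 0.13, beside 0.03 over all genes. In the comparison of name forms these medians were 0.17 and -0.07, again with 0 list genes called.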

How the data were processed

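Droplet RNA sequencing with UMIs was used, and the authors processed reads with kallisto, bustools and Seurat (GRCm38 per the submitters' processing notes; aligner versions are not given in the sources used here). The deposited values were natural log (ln) values of 1 plus UMIs per 10000 UMIs of the cell; after undoing the log, 100% were whole UMIs within 0.001. The authors also deposited the percent of mitochondrial UMIs, a latent time as a fraction from 0 to 1, and clusters, which were used as given. The donor table held 91.3% (median over cells) of all UMIs. DoubletFinder had been run by the authors to take out likely doublets, and no further doublet call was made. Mean CP10K per library and cluster of at least 20 cells was used, and cells shallower than 2000 UMIs were left out only where thinning or that limit is named. Resident mLC were compared with limma 3.58.1 (trend and robust, statmod 1.5.0, R 4.3.3) on log2(mean CP10K + 0.1), over genes that averaged 0.1 CP10K or more. Calls needed an absolute log2 difference above 1 and an adjusted p (Benjamini-Hochberg) under 0.05. The pseudocount understates the change of low genes. A count model was not used, since the test was set for normalised values. The test was tried on simulated data first. Host and keratinocyte libraries have 1 sample a group and no test. Exact intervals and limits (3 counts for a count of 0) at 95% cover counting error only. Named were all 7 members, the 3 genes most like each, and genes of fixed lists where a count of 5 or fewer was given; further list genes are examples chosen after their values were seen. One of the most alike genes is not reported here. Members and lists were chosen with earlier results of these data known, and the split by depth and the stated-filter check were chosen after seeing the data. Genes outside the tables were not analysed here, and 0 columns of per-sample values were left unused. Alternatives were other pseudocounts, means of ln values, no filter, a library left out, name form as a term and deeper cells only. Other computations used SciPy 1.17.1, NumPy 2.4.6 and pandas 2.3.3 under Python 3.11.15, and figures matplotlib 3.10.9.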

Additional observations from a re-analysis of the deposited data

How the results depend on the processing

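No paired analysis was possible because the groups compared share no replicate number in the labels. With 1 library against 3, and 51 to 1175 resident mLC per library, both comparisons have few libraries, and no group reached 4 libraries, so no library could be tested as standing apart. In the comparison of labels, the count of called genes was 0, and 0 to 4 when a library was left out (4 without BMT replicate 3). In the comparison of name forms it was 29, and it was 18 with means of ln values, 15 with a pseudocount of 1, 0 with no filter (more genes tested), 152 with deeper cells only, and 4 to 273 when a library was left out (4 without BMT replicate 3, 273 without BMT + T cells, 70 without BMT replicate 1). The cause was not tested. Signs turned mostly for small differences. In the comparison of labels, Cd207 turned to -0.12 with name form as a term, Mfge8 to 0.052 with ln values and to between -0.30 and 0.10 when a library was left out, and Rgs18 to -0.00911 in deeper cells. H2-M5 turned to -0.29 with ln values, -0.00134 with a pseudocount of 1, -0.38 in deeper cells and to between -0.0761 and 0.15 when a library was left out. In the comparison of name forms, signs turned when a library was left out for Mfge8 (-0.229 to 0.571), H2-M5 (-0.378 to 0.0697), Cacna1e (-0.45 to 0.792), Rgs18 (-0.0528 to 0.113) and Cd244a (-0.315 to 0.396). The levels in resident mLC stayed within 1 SD in 45 of 49 recomputations. The exceptions were H2-M5 (2.32 and 3.10 CP10K) and Cacna1e (0.762 and 1.04 CP10K), in deeper cells and within the stated filter. Shares of positive cells moved with the depth of thinning in 14 of 21 recomputations, and the coefficients with latent time by less than 1 SD in 35 of 35.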
